A study of Mus musculus with 20 samples.

Results

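Retinoic acid is the vitamin A derivative that, in the mouse, drives germ cells of the fetal ovary into meiosis and is kept from germ cells of the fetal testis. Cells make it from retinol by way of retinal, bind it in the cytosol, sense it through nuclear receptors and break it down with cytochrome P450 enzymes of the CYP26 family. The 10 genes described here are retinoic acid genes of these 4 kinds: synthesis (Rdh10, Aldh1a1, Aldh1a2, Aldh1a3), breakdown (Cyp26a1, Cyp26b1), cytosolic binding (Crabp1, Crabp2) and nuclear receptors (Rara, Rarb). They were found by symbol among the gene probes of the array, which carried all 10 of the 10 genes on 13 probes, 7 genes with 1 probe and 3 genes (Aldh1a3, Rdh10, Rarb) with more than 1. The array held 41174 gene probes in all.

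RNA from single pairs of XY gonads of embryonic day 11.5 mice, staged at 17 to 21 tail somites and freed of the mesonephros, was labelled with Cy5, with 5 arrays for each of 4 genotypes. These were (B6x129S1)F1 and (129S1xB6)F1, hybrids of opposite cross direction, and the inbred strains C57BL/6J and 129S1/SvImJ. The Cy3 channel of every array held RNA of 1 common pool, in which whole embryos (4 XY and 2 XX) were mixed with gonad pairs (4 XY and 3 XX) of a cross between Sox9-ECFP mice on C57BL/6J and CD-1. The series asks what sets the C57BL/6J gonad apart in view of its known liability to XY sex reversal. All values are log2 ratios of gonad over pool, so 1 unit is a doubling. Gonad RNA carried the same dye on every array, so a dye effect stays in each level. Such an effect cancels in differences between genotypes only where it is the same on all arrays.

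All 13 probes were well above background in both channels on all 20 arrays, and none was saturated, so each passed the detection filter, which left 35040 probes to test. Median net Cy5 signal ran from 87.3 to 207 per array. Of the 8 listed somatic gonad genes, 7 had a mean above the pool, among them Wt1 at 4.31, Gata4 at 2.57 and Nr5a1 at 2.14, while Cbx2 was at -0.86. Single arrays stood apart in 2 genes. Rbp4, the carrier of retinol in blood, was at 1.54 on C57BL/6J array H1, against -5.40 to -3.49 on the other 19 arrays, and Cdh16, a cadherin of kidney tubules, was at 4.35 and 3.43 on (129S1xB6)F1 arrays M3 and M6, 1.49 on (B6x129S1)F1 array F2, 2.05 on C57BL/6J array H3 and 1.98 on 129S1/SvImJ array A6, against a median of -0.18 over all 20 arrays. Of the same mesonephros and nephric duct list, Lhx1 and Wfdc2 stayed below the pool on every array, at -0.60 and -0.35 at most. Rbp4 and Cdh16 were chosen after their values were seen, and the source of these signals was not tested.

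A DR5 retinoic acid response element, a direct repeat of the receptor's half-site with a spacer of 5 bases, was searched on both strands of the RefSeq promoter windows (GRCm38.p6; 250 bases before to 50 after the start). Of the 10 genes, 7 had a window, with 11 windows in all. The element lay in 2 of these 11 windows, those of Rarb and Cyp26a1, while 0.0974% of all 32851 windows held it. The corresponding elements with spacers of 1 and 2 bases, DR1 and DR2, lay in 0.222% and 0.268% of all windows and in 0 windows of members. The 100 bases before each start are shown because these are the windows of members with a match, with the half-sites in capitals. For Rarb the stretch shown is chr14:16575477-16575576 on the minus strand and the element reads along the gene. For Cyp26a1 it is chr19:37697708-37697807 on the plus strand and the element lies on the opposite strand. A match describes the letters and is not evidence of binding.
Rarb: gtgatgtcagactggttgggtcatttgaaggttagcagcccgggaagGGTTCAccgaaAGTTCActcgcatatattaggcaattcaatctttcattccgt
Cyp26a1: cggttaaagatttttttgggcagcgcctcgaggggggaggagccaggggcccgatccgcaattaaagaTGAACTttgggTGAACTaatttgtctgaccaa

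Relative to the pool, the gonads had more signal for 2 of the 4 synthesis genes and 1 of the 2 breakdown genes, and less for both binding proteins. Aldh1a1, a retinal dehydrogenase, stood at 2.81 ± 0.37 (SD over 20 arrays), which is 7.02-fold above the pool, and Aldh1a2, the dehydrogenase that makes most embryonic retinoic acid, at 1.84 ± 0.41, or 3.58-fold. Both were above the pool on 20 of 20 arrays. Cyp26b1, the retinoic acid hydroxylase of the fetal testis, stood at 1.40 ± 0.71, or 2.64-fold, and was above the pool on 19 of 20 arrays, with 129S1/SvImJ array G3 at -0.12.

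Its relative Cyp26a1 was on the other side of the pool on 20 of 20 arrays, at -1.52 ± 0.20. The binding proteins lay lowest, with Crabp1 at -3.19 ± 0.41 and Crabp2 at -2.60 ± 0.39, which are 9.12-fold and 6.07-fold below the pool. Over all 35040 probes tested, the mean log2 ratio had a median of 0.09, and 90% of probes lay between -1.08 and 1.01. The gonad is part of the pool, whole embryos the rest, and in such bulk samples more cells of a type and more RNA per cell cannot be told apart. Because no dye was swapped, these levels are described without a test.

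The retinol dehydrogenase Rdh10 and the receptor gene Rara were close to the pool. Rdh10 averaged -0.04 ± 0.22 at its brighter probe and -0.14 ± 0.23 at the other, and Rara -0.13 ± 0.28. Aldh1a3, the third retinal dehydrogenase, averaged -0.33 ± 0.47 at its brighter probe and -0.11 ± 0.15 at the other. The receptor gene Rarb, itself a target of retinoic acid, was below the pool on 20 of 20 arrays at both probes, with -1.42 ± 0.39 at the brighter and -0.69 ± 0.27 at the other. So Rarb and Cyp26a1, whose promoters are printed above, both had more signal in the pool than in the gonad.

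**Figure D1:**
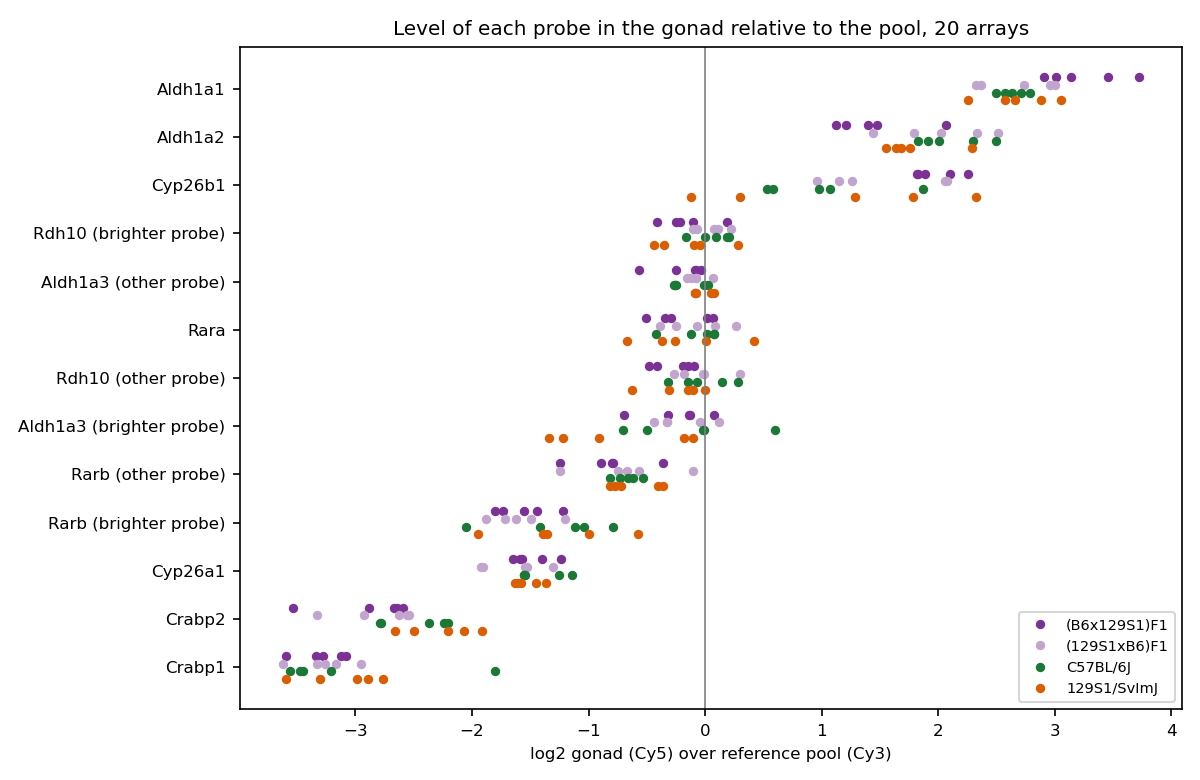
Log2 ratio of gonad (Cy5) over the reference pool (Cy3) for the 13 probes of the 10 genes (horizontal axis), 1 point per array and 4 rows of points per probe for the genotypes. Aldh1a1 and Aldh1a2 lie right of the line at 0 on all 20 arrays, and Crabp1, Crabp2, Cyp26a1 and Rarb lie left of it on all 20 arrays.

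No member was called between the genotypes. When the 4 genotypes were tested together with a moderated F statistic, 0 of the 13 probes passed an adjusted p under 0.05, while 3.56% of all probes did. At an unadjusted p under 0.05 there were 3 of 13, against 13% of all probes. The smallest adjusted p belonged to Aldh1a1 (0.118), then Aldh1a2 (0.267) and Crabp2 (0.269). These adjusted p-values come from limma's moderated statistics with Benjamini-Hochberg adjustment over all 35040 probes. The values below are therefore levels and intervals, not calls.

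**Figure D2:**
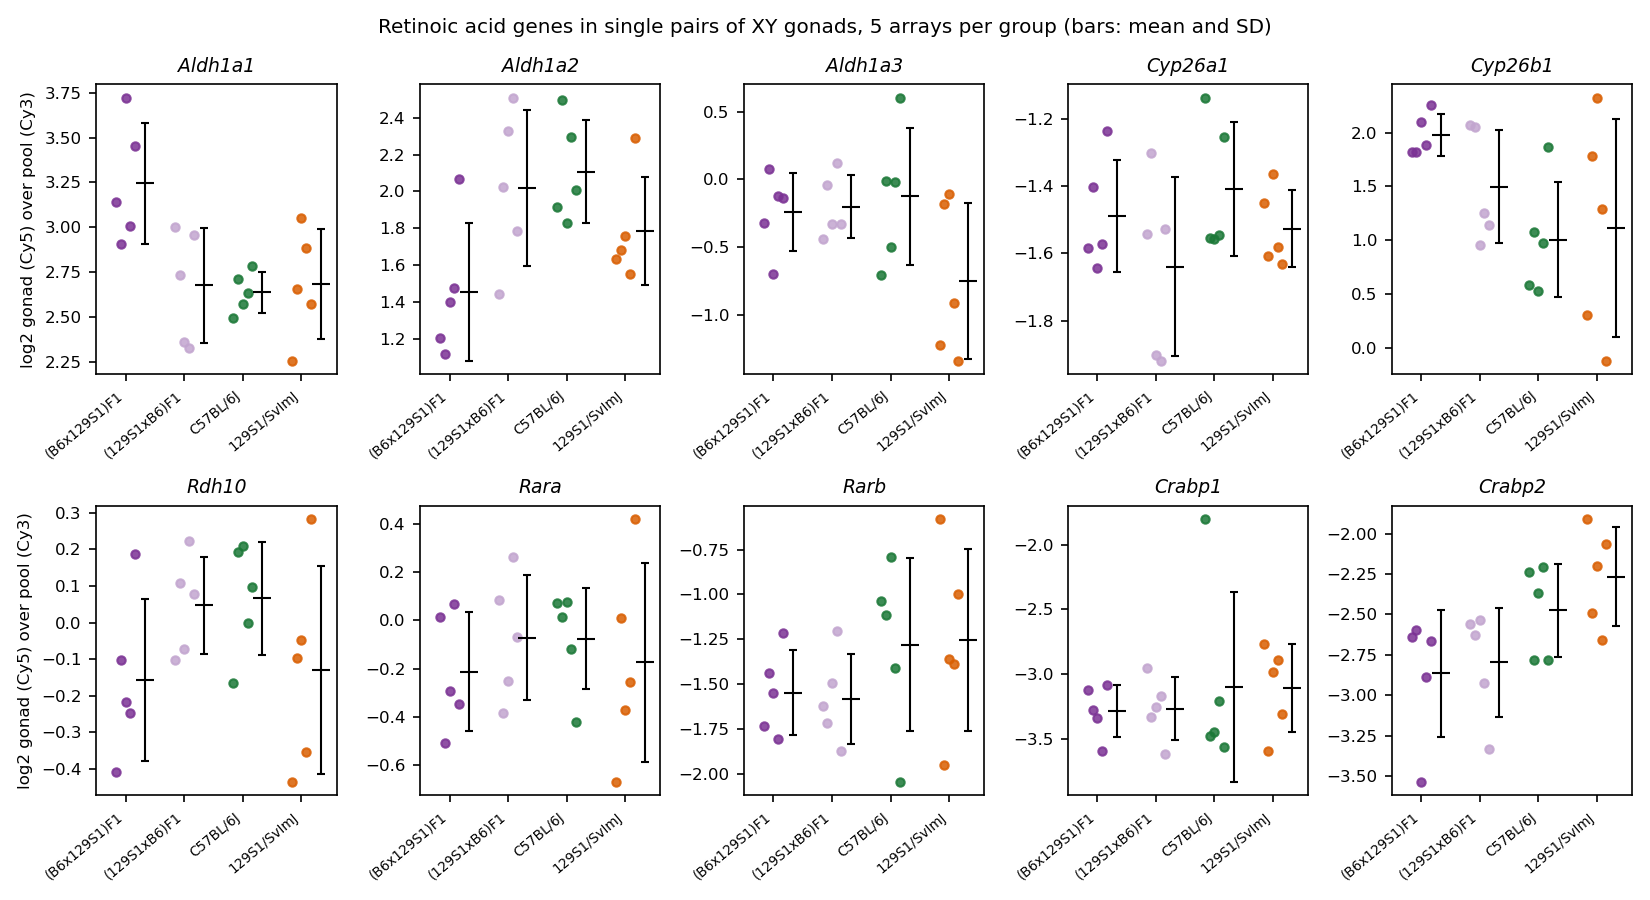
Log2 ratio of gonad over pool (vertical axis, its own scale in each panel) for the 10 genes, brighter probe where a gene has more than 1, by genotype. Points are arrays, and bars are the mean and SD of 5 arrays. Aldh1a1 runs from 2.90 to 3.72 in (B6x129S1)F1 and from 2.32 to 3.00 in (129S1xB6)F1. It runs from 2.49 to 2.79 in C57BL/6J and from 2.26 to 3.05 in 129S1/SvImJ. Crabp1 shows 1 C57BL/6J array at -1.80.

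Between the inbred strains, 0 of 13 probes were called, against 5.47% of all probes, and at 0 of 13 the arrays of the strains did not overlap, against 5.19% of all probes. At an unadjusted p under 0.05 there was 1 of 13, against 15.1% of all probes. The 7 positive and 6 negative differences had a median of 0.01, where the median over all probes was 0.00. Aldh1a3 had the smallest p. Its brighter probe read -0.70, -0.01, -0.50, -0.02 and 0.60 in C57BL/6J, against -1.22, -0.18, -0.11, -0.91 and -1.34 in 129S1/SvImJ. The 3 lowest values of all 20 arrays were 129S1/SvImJ ones, while the other two lay among those of C57BL/6J. The difference, C57BL/6J minus 129S1/SvImJ, was 0.63 ± 0.25 (SE; 95% interval 0.10 to 1.15; adjusted p = 0.204).

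With slide as a block, the Aldh1a3 difference stayed at 0.63 and its adjusted p was 0.0385, the only call of a member under any alternative. Its other probe gave -0.13 ± 0.10 (adjusted p = 0.663), so the 2 probes of the gene disagreed in sign. Within slides 1 to 4 the brighter probe gave 0.47, 0.17, 0.71 and 1.32. In the Cy3 channel the RNA was the same throughout. There C57BL/6J minus 129S1/SvImJ was 0.09 ± 0.23 (SE) at the brighter probe and -0.07 ± 0.17 at the other, neither called. On F1 arrays the brighter probe read 0.47 ± 0.20 higher than on 129S1/SvImJ arrays in this channel, and the other probe fell by 0.39 ± 0.15. Both were short of the threshold (adjusted p = 0.452 and 0.437). No other member moved in the pool channel by more than 0.25 in any comparison, and the largest move among them was that of Crabp2, given below.

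For Cyp26b1 the strains were 1.01 ± 0.54 in C57BL/6J and 1.12 ± 1.02 in 129S1/SvImJ (SD, n = 5 each), a difference of -0.11 ± 0.37 (SE; 95% interval -0.89 to 0.67). That interval reaches from 0.89 log2 units lower to 0.67 higher in C57BL/6J. The interval was narrower for other members, at -0.15 to 0.38 for Cyp26a1 and -0.27 to 0.47 for Rara. The remaining strain differences ran from -0.21 for Crabp2 to 0.32 for Aldh1a2, with adjusted p of 0.536 and above.

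**Figure D3:**
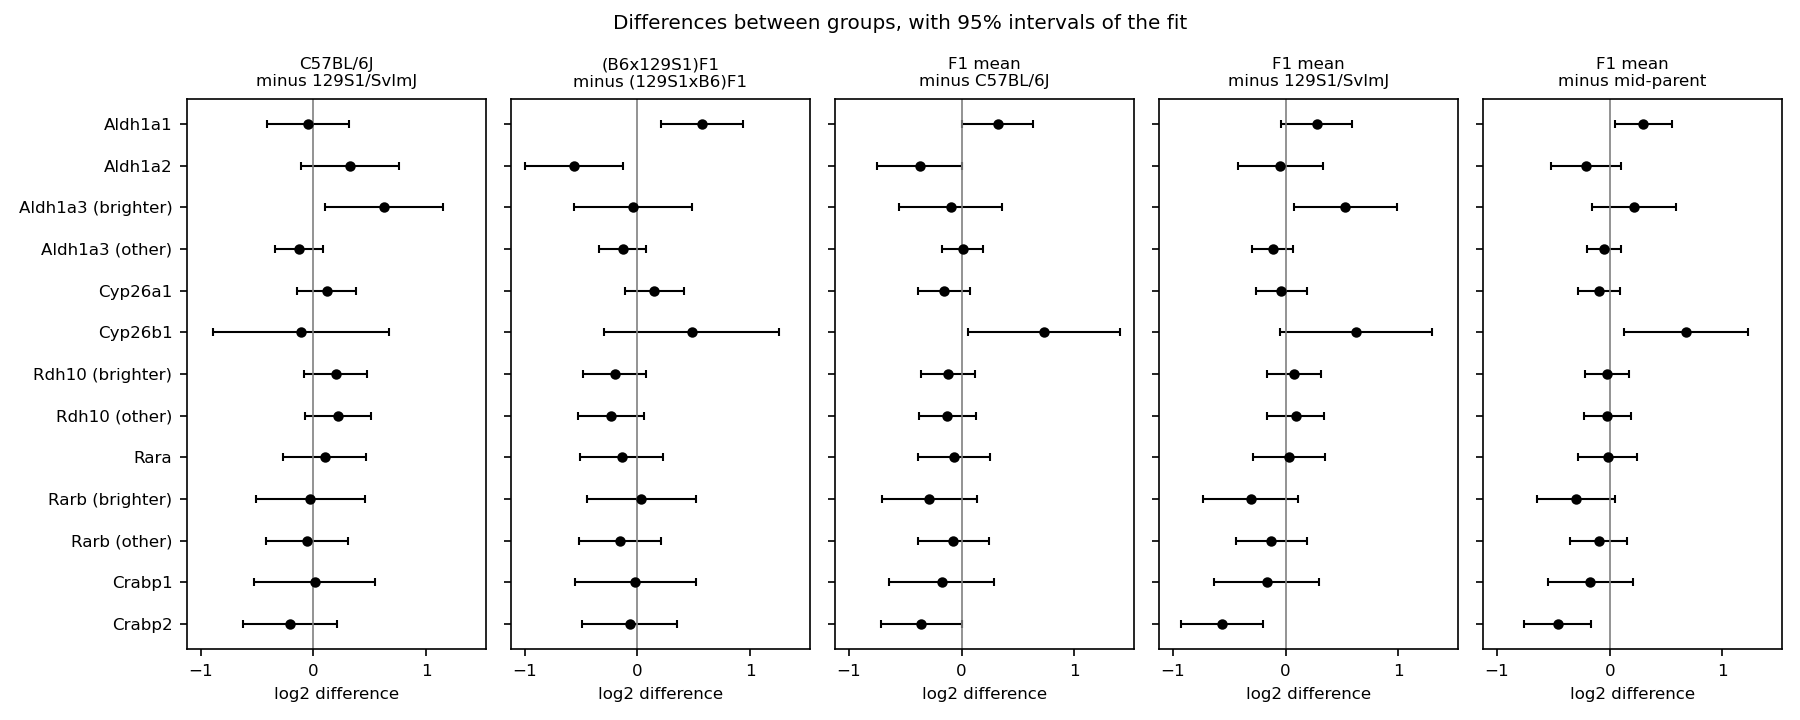
Log2 difference of each of the 13 probes (rows) in 5 comparisons (panels), with the 95% interval of the fit. Cyp26b1 has the widest intervals, and Aldh1a3 is positive at its brighter probe and negative at the other in the strain comparison.

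The hybrids differ from each other in the direction of the cross. In this comparison 0 of 13 member probes were called, against 0.00571% of all probes, which is 2 probes, so nearly nothing on the array was called. At 0 of 13 probes the arrays of the hybrids did not overlap, against 0.605% of all probes, and 2 of 13 had an unadjusted p under 0.05, against 3.34%. Aldh1a1 read 3.14, 2.90, 3.72, 3.01 and 3.45 in (B6x129S1)F1 against 3.00, 2.73, 2.36, 2.32 and 2.96 in (129S1xB6)F1. The groups overlapped only in the range from 2.90 to 3.00, and (B6x129S1)F1 minus (129S1xB6)F1 was 0.57 ± 0.17 (SE; adjusted p = 1). The same probe was at 2.64 ± 0.12 in C57BL/6J and 2.68 ± 0.31 in 129S1/SvImJ (SD, n = 5 each), so (129S1xB6)F1, at 2.68 ± 0.32, did not differ from either strain beyond the spread.

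Aldh1a2 went the other way. It read 1.20, 1.12, 1.40, 1.48 and 2.07 in (B6x129S1)F1, against 1.44, 2.03, 2.33, 2.51 and 1.79 in (129S1xB6)F1, a difference of -0.57 ± 0.21 (SE; adjusted p = 1). In both genes the 4 within-slide differences kept their direction, from 0.14 to 1.09 for Aldh1a1 and from -0.91 to -0.24 for Aldh1a2. The M3 array, high in Cdh16, had the highest Aldh1a2 value of all 20 arrays at 2.51, while M6, also high in Cdh16, had 1.79. Across arrays, with group means taken out, Aldh1a2 had r = 0.27 with the mean of 11 mesonephros and nephric duct genes (rho = 0.07, permutation p = 0.363, adjusted p = 0.76 over 110 relations).

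Against the strains, the F1 arrays showed no called member either. For the F1 mean minus C57BL/6J, 0 of 13 were called against 1.91% of all probes, and for the F1 mean minus 129S1/SvImJ, 0 of 13 against 1.54%. In both comparisons 0 of 13 had arrays that did not overlap, against 1.3% and 1.08% of all probes. Against mid-parent, the average of both inbred strains, 0 of 13 were called against 0.24%. At 0 of 13 probes the F1 arrays lay all above or all below every array of both strains, against 0.00571% of all probes. At an unadjusted p under 0.05 there were 2 of 13 against 11.6% for C57BL/6J, 2 of 13 against 12.4% for 129S1/SvImJ, and 3 of 13 against 8.72% for mid-parent. These comparisons share arrays with each other.

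Crabp2, which carries retinoic acid to its receptors, had the smallest p here. It read -2.64, -2.59, -3.54, -2.89 and -2.67 in (B6x129S1)F1 and -2.56, -2.63, -2.54, -2.93 and -3.33 in (129S1xB6)F1. C57BL/6J arrays read -2.24, -2.78, -2.36, -2.21 and -2.78, and 129S1/SvImJ arrays -1.91, -2.49, -2.20, -2.66 and -2.06. The 4 highest values of the 20 arrays were 129S1/SvImJ and C57BL/6J ones. The 4 lowest were C4, M6, M3 and E1, the arrays of slide 5. That slide held F1 arrays only, while slide 1 held inbred strains only. The F1 mean minus 129S1/SvImJ was -0.56 ± 0.17 (SE; adjusted p = 0.136), minus C57BL/6J -0.36 ± 0.17 (adjusted p = 0.446), and minus mid-parent -0.46 ± 0.14 (adjusted p = 0.316). Within slides 2, 3 and 4, which held all groups, the difference from 129S1/SvImJ was -0.11, -0.41 and -0.54. From C57BL/6J it was 0.18, 0.17 and -0.39, and from mid-parent 0.04, -0.12 and -0.46.

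Crabp2 was also the member whose ratio moved with the brightness of the array. With group means taken out, it correlated with the log2 of median net Cy5 signal at r = 0.68 (permutation p = 0.00123, adjusted over the 10 genes p = 0.0123), while the other 9 had an adjusted p of 0.346 and above. Its median Cy5 signal was 282 and its Cy3 signal 1783. The arrays of slide 5, all F1, were the dimmest, with median net Cy5 signal of 87.3 to 104, against 113 and above elsewhere. In the Cy3 channel, where the RNA was the same, Crabp2 read 0.23 ± 0.11 (SE) higher on F1 than on C57BL/6J arrays (adjusted p = 0.828). It read 0.17 ± 0.11 higher than on 129S1/SvImJ arrays (adjusted p = 0.543) and 0.20 ± 0.09 above mid-parent (adjusted p = 0.339). A higher pool signal lowers the ratio. The parts of brightness and of the pool channel in the F1 difference were not tested.

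Cyp26b1 was the member that varied most. It read 1.82, 1.82, 2.10, 1.89 and 2.26 in (B6x129S1)F1 and 2.07, 2.06, 0.96, 1.26 and 1.15 in (129S1xB6)F1. In C57BL/6J it read 0.59, 1.07, 0.53, 0.97 and 1.87, and in 129S1/SvImJ 0.30, 1.78, 2.33, 1.29 and -0.12. The (B6x129S1)F1 arrays were tightly grouped, while 129S1/SvImJ arrays held both the lowest and the highest value of the 20 arrays. Its SD within groups was 0.64, larger than that of 96.8% of all probes tested, where the median was 0.25. The F1 mean minus C57BL/6J was 0.73 ± 0.32 (adjusted p = 0.371), minus 129S1/SvImJ 0.62 ± 0.32 (adjusted p = 0.45) and minus mid-parent 0.68 ± 0.26 (adjusted p = 0.476). Within slides 2, 3 and 4 the mid-parent difference was 0.18, -0.16 and 1.52.

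Values of germ cell genes are given beside these. The mean of the 8 listed germ cell genes ran from 1.66 to 2.30 in (B6x129S1)F1 and from 1.88 to 2.15 in (129S1xB6)F1, against 1.17 to 1.62 in C57BL/6J and 1.30 to 1.77 in 129S1/SvImJ. All 8 were well above background on all 20 arrays, and 0 were called lower for the F1 mean against the strains. Called higher were 1 of 8 against C57BL/6J (1.91% of all probes were called there), 2 of 8 against 129S1/SvImJ (1.54%) and 2 of 8 against mid-parent (0.24%), and the ranges of (B6x129S1)F1 and 129S1/SvImJ overlapped. The list of 5 pre-Sertoli genes ran from 1.05 to 1.50 in (B6x129S1)F1, 0.94 to 1.44 in (129S1xB6)F1, 0.76 to 1.16 in C57BL/6J and 0.34 to 1.30 in 129S1/SvImJ, with 0 of 5 called in any comparison. Of these 5 genes, 4 were well above background on all 20 arrays, and Sry was so on 13. Correlations of Cyp26b1 and Crabp2 with both lists are given below, and what part these cells had in the values of either gene was not tested.

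The receptor genes and the other breakdown enzyme were called in no comparison, though Rarb varied widely between arrays. At its brighter probe, Rarb had an SD within groups of 0.39, larger than that of 82% of all probes tested. Rarb, at its brighter probe, averaged -1.55 ± 0.24 in (B6x129S1)F1, -1.58 ± 0.25 in (129S1xB6)F1, -1.28 ± 0.48 in C57BL/6J and -1.25 ± 0.51 in 129S1/SvImJ (SD, n = 5 each). This probe was printed 10 times on each array, and the spots of 1 array had a pooled SD of 0.07, and the 20 arrays an SD of 0.39. The spots of 1 array share its hybridisation, so the first value holds no error of labelling or hybridisation. Rara averaged -0.21 ± 0.25, -0.07 ± 0.26, -0.08 ± 0.21 and -0.17 ± 0.41 in the same order of groups, and Cyp26a1 -1.49 ± 0.17, -1.64 ± 0.27, -1.41 ± 0.20 and -1.53 ± 0.11. The order of group means was not the same in these genes, and neighbours in each order differed by less than 0.27. The highest and lowest group means differed by 0.33 for Rarb, 0.14 for Rara and 0.23 for Cyp26a1.

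Crabp1, the other binding protein, averaged -3.28 ± 0.20 in (B6x129S1)F1, -3.27 ± 0.24 in (129S1xB6)F1, -3.10 ± 0.74 in C57BL/6J and -3.11 ± 0.34 in 129S1/SvImJ (SD, n = 5 each). In C57BL/6J array H1 stood at -1.80, against -3.56 to -3.21 on the other 4. H1 is the array on which Rbp4 was above the pool. Without it, C57BL/6J minus 129S1/SvImJ was -0.31 ± 0.16 (adjusted p = 0.392), against 0.01 ± 0.26 with it. Rdh10 averaged -0.16 ± 0.22, 0.05 ± 0.13, 0.07 ± 0.15 and -0.13 ± 0.28 in the same order of groups at its brighter probe, and its probes had r = 0.74 over the 20 arrays. The probes of Rarb had r = 0.37 and those of Aldh1a3 r = 0.21, so relations of these genes given below hold for the brighter probe.

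The members' deviations from their group means were set against each other in all 45 pairs of genes, of which 9 had a permutation p under 0.05 and 0 passed Benjamini-Hochberg adjustment over the 45. Arrays were shuffled within their group 100000 times. Aldh1a3 and Cyp26b1 had r = 0.73 and rho = 0.63 (permutation p = 0.00491, adjusted p = 0.0973), with r = 0.59 without the 2 arrays farthest from the median of Aldh1a3. Aldh1a1 and Cyp26b1 had r = 0.60 and rho = 0.68 (permutation p = 0.00649, adjusted p = 0.0973). Cyp26b1 and Rarb ran opposite at r = -0.62 and rho = -0.55 (permutation p = 0.0238, adjusted p = 0.216). With slide means taken out as well, these 3 values of r were 0.53, 0.66 and -0.52. Aldh1a2 and Rdh10 had r = 0.63 and rho = 0.51 (permutation p = 0.00512, adjusted p = 0.0973). Their r was 0.38 without the 2 arrays farthest from the median of Aldh1a2, and 0.56 with slide means taken out. Rarb and Cyp26a1, the genes with a DR5 match, had r = -0.11 (permutation p = 0.639, adjusted p = 0.856).

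**Figure D4:**
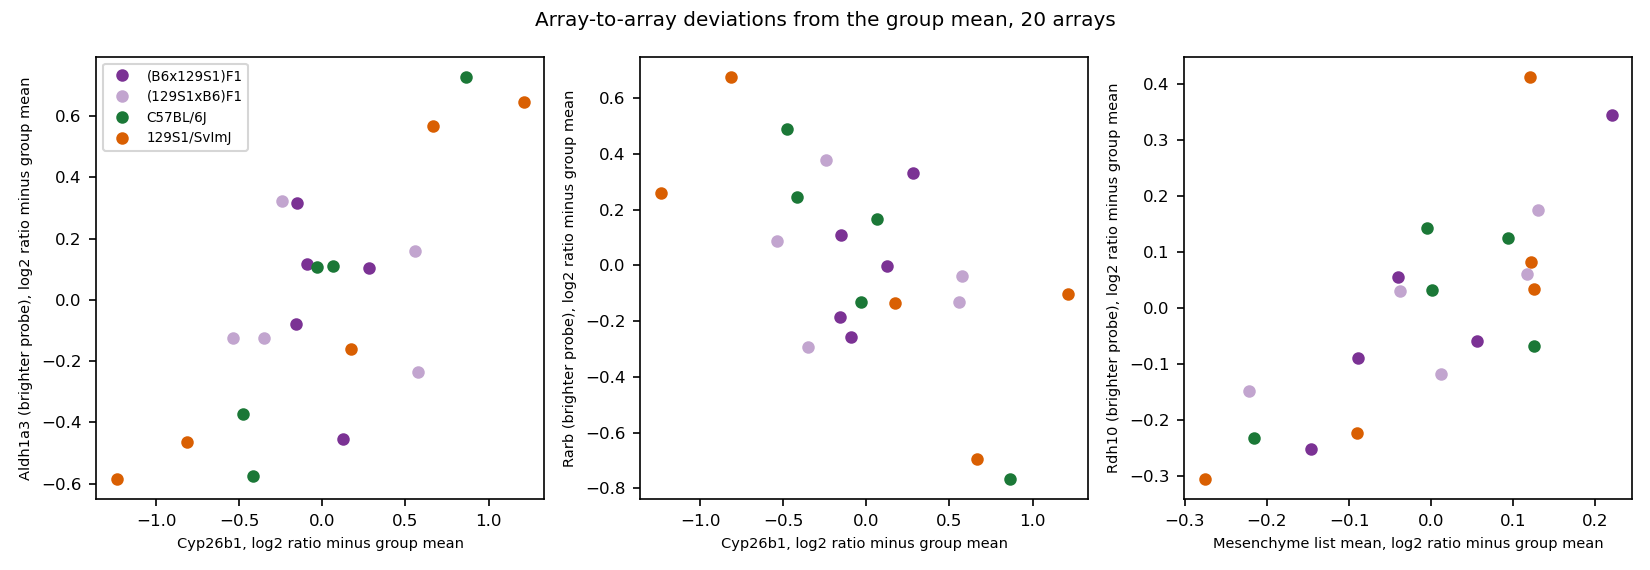
Deviations of single arrays from their group mean, in log2 units, for Aldh1a3 against Cyp26b1 (left), Rarb against Cyp26b1 (middle) and Rdh10 against the mean of 8 mesenchyme and interstitium genes (right). Points are the 20 arrays coloured by genotype, and r is 0.73, -0.62 and 0.79 from left to right.

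Set against 11 lists of cell type markers, the 10 genes gave 110 relations, of which 1 passed adjustment. Rdh10 varied together with the mesenchyme and interstitium list, at r = 0.79 and rho = 0.76 (permutation p = 0.00024, adjusted p = 0.0264), with r = 0.75 without the 2 arrays farthest from the median of the list and 0.71 with slide means taken out. Its adjusted p was 0.055 to 0.128 without any 1 of 6 arrays (C2, E1, F2, A3, D4 or H1) and passed the threshold without any 1 of the other 14. It was 0.0605 with normexp and loess and 0.066 with the deposited ratios. Of the 8 genes of this list, 5 had a mean above the pool. The list holds Nr2f2, which is also listed here as a target of retinoic acid, and Tcf21, which is also a somatic gonad marker here. Aldh1a2, like Rdh10 a synthesis enzyme, had r = 0.71 with the same list (permutation p = 0.00104, adjusted p = 0.0532), and Crabp2 had r = 0.72 with the limb and axial mesenchyme list (permutation p = 0.00145, adjusted p = 0.0532). With the pre-Sertoli list, Aldh1a1 had r = 0.66 (permutation p = 0.00458, adjusted p = 0.126), Crabp2 r = -0.59 (permutation p = 0.00959, adjusted p = 0.176) and Cyp26b1 r = 0.59 (permutation p = 0.0639, adjusted p = 0.4). With the germ cell list, Crabp2 had r = -0.55 (permutation p = 0.0236, adjusted p = 0.325) and Cyp26b1 r = 0.36 (permutation p = 0.114, adjusted p = 0.488). With slide means taken out as well, r with this list was -0.36 for Crabp2 and 0.73 for Cyp26b1.

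The genes most like a member over the 20 arrays were listed for the 3 members with the smallest F test p. Aldh1a1 was followed most closely by Dmp1 (r = 0.86, and 0.80 with group means taken out), Zan (0.85 and 0.74) and Apol6 (0.85 and 0.71). Aldh1a2 was followed by Sesn3 (0.79 and 0.79), Zfp768 (0.76 and 0.77) and Dab2 (0.75 and 0.72). Crabp2 was followed by Astn1 (0.84 and 0.76), Pcdh10 (0.83 and 0.85) and Vsnl1 (0.82 and 0.70). For Cyp26b1, added after its values were seen, the leading genes were Cemip at both of its probes (0.92 and 0.90), Smtnl2 (0.90), Lmo4 (0.89) and Fgf9 (0.88), a growth factor of the early testis. Each of these was picked as the highest of all named probes, so the values describe and do not test.

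Of 56 other genes of the pathway that were listed by role, 55 were on the array and 47 passed the detection filter. Between the strains, 2 of 47 were called higher and 1 of 47 lower in C57BL/6J, which is close to the 5.47% of all probes, and the median difference of the 47 was 0.01. For the F1 mean minus C57BL/6J, 1 was called higher and 2 lower (1.91% of all probes were called), for the F1 mean minus 129S1/SvImJ 1 higher and 0 lower (1.54%), and between the reciprocal hybrids and against mid-parent 0. The called genes were Rec8, Rarres1 and Med1.

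Rec8, a meiotic cohesin gene induced by retinoic acid in mouse germ cells, averaged 0.01 ± 0.30 in (B6x129S1)F1, 0.69 ± 0.40 in (129S1xB6)F1, 2.15 ± 0.50 in C57BL/6J and -0.59 ± 0.24 in 129S1/SvImJ (SD, n = 5 each). Its arrays ran from 1.40 to 2.70 in C57BL/6J and from -0.81 to -0.26 in 129S1/SvImJ, without overlap. C57BL/6J minus 129S1/SvImJ was 2.74 ± 0.22 at the brighter probe (adjusted p = 6.11e-08) and 1.22 ± 0.16 at the other (adjusted p = 2.52e-05). Stra8, the other listed meiotic target, was called in no comparison.

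Rarres1, named for its response to retinoids, averaged 1.33 ± 0.39 in (B6x129S1)F1, 1.81 ± 0.21 in (129S1xB6)F1, 2.20 ± 0.24 in C57BL/6J and 1.22 ± 0.29 in 129S1/SvImJ (SD, n = 5 each). C57BL/6J minus 129S1/SvImJ was 0.98 ± 0.18 (adjusted p = 0.00134). Med1, a subunit of the Mediator coactivator, was lower in C57BL/6J at its brightest probe, at -2.02 ± 0.37 in C57BL/6J against -0.50 ± 0.23 in 129S1/SvImJ, a difference of -1.52 ± 0.18 (adjusted p = 8.39e-06). Its other 2 probes gave -0.01 ± 0.11 and 0.25 ± 0.16 and were not called, so the 3 probes of Med1 disagree.

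**Figure D5:**
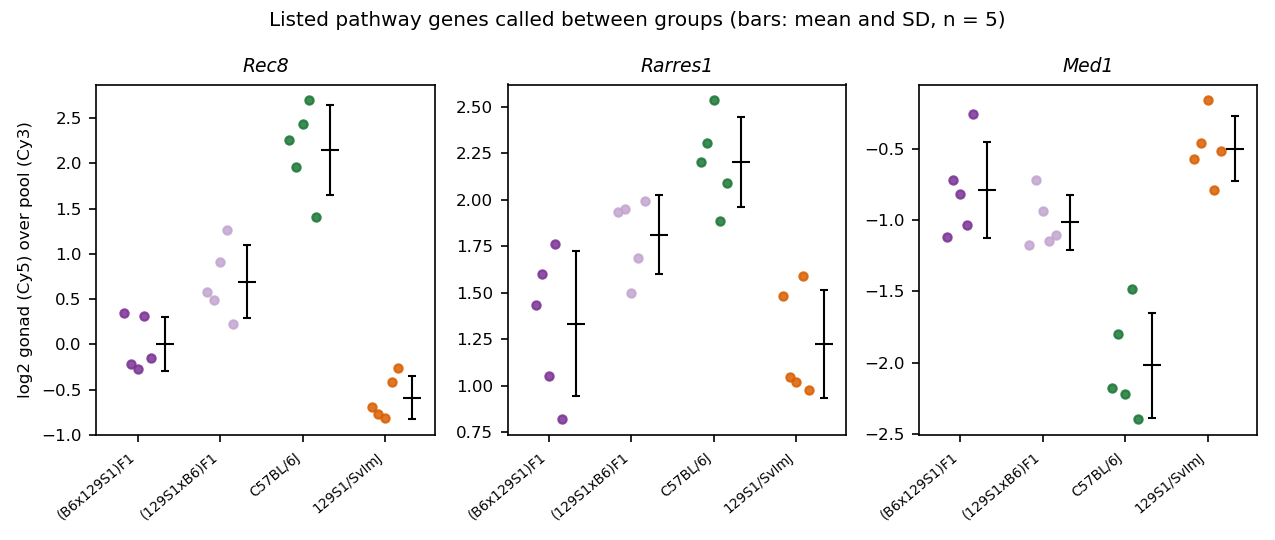
Log2 ratio of gonad over pool (vertical axis, its own scale in each panel) for the listed pathway genes called between groups, by genotype, with 1 point per array and bars for the mean and SD of 5 arrays. Rec8 has its highest mean in C57BL/6J and its lowest in 129S1/SvImJ, with no overlap between these strains, and Med1, at its brightest probe, is lowest in C57BL/6J.

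The other roles held no called gene in any comparison. Dhrs3, which turns retinal back into retinol, had the smallest F test p among the oxidoreductases (adjusted p = 0.235), and its F1 mean minus mid-parent was -0.24 ± 0.08 (adjusted p = 0.389). Rdh7 followed (F test adjusted p = 0.438). In transport, Stra6, the membrane receptor for retinol bound to its carrier, had an F test adjusted p of 0.679. Of the 5 other receptor genes, Rxra and Rxrg had 0.747 and 0.937.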

How the data were processed

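Gonad RNA (Cy5) and pool RNA (Cy3) were read as spot intensity. Per the file headers, Agilent Feature Extraction 9.1.3.1 made the processed intensity columns, with background subtraction and dye normalization. The authors also deposited a table of log2 ratios, which served as an alternative and, set against the processed signals on each array, gave r = 0.990 to 0.999. Here log2(Cy5/Cy3) of the processed signals was averaged over the spots of a probe, without control spots or spots with a non-uniformity flag. A probe was kept if any group had 4 or more of its 5 arrays well above background in Cy5. A linear model over the 4 groups was fitted with limma 3.58.1 under R 4.3.3 (16 residual and 3.3 prior degrees of freedom), p was adjusted by Benjamini-Hochberg over 35040 probes, and an adjusted p under 0.05 was a call. The fit was tested on simulated data.

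Where a gene had several probes, the brightest on average led. Named genes were all members, listed pathway genes called in any comparison, otherwise up to 2 per role with the smallest F test p, and the 3 most similar probes of 3 members. One gene that this rule names is not reported here. The lists covered retinol transport, oxidoreductases, breakdown, receptors, coregulators and targets, and 11 cell types, namely somatic gonad, pre-Sertoli, germ, mesonephros, mesenchyme, endothelial, erythroid, macrophage, neural, limb and adrenal cells. Members and lists were chosen with earlier results of these data known. Correlations used Python 3 (numpy, scipy), with group means taken out and arrays shuffled within groups in two-sided permutation tests. Arrays came on 5 slides, of which slides 2 to 4 held all groups, slide 1 only the inbred strains and slide 5 only the F1 hybrids. Each array was 1 gonad pair, so p-values measure the spread between embryos. Litters are not identified by the labels. The letters of the sample names were tried as a random block, and 4 of the 5 C57BL/6J arrays share 1 letter. The number of arrays limits the precision. Groups share no replicate name.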

Additional observations from a re-analysis of the deposited data

Results flagged for a closer look

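Each of the 13 probes was looked at in each of the 4 groups, 52 groups of 5 arrays in all, for an array whose gap to its nearest neighbour was an unusually large share of the group's range. Chance picks about 1 in 20 such groups, and 2 were picked.

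Crabp1 was at -1.80 on C57BL/6J array H1, against -3.56 to -3.21 on the other 4 arrays, a gap of 0.80 of the range. Rbp4 was at 1.54 on the same array and no higher than -3.49 on the other 19, and what the 2 values share was not tested. Aldh1a2 was at 2.29 on 129S1/SvImJ array G3, against 1.55 to 1.76 on the other 4, a gap of 0.72 of the range. Without G3, C57BL/6J minus 129S1/SvImJ for Aldh1a2 was 0.45 ± 0.21 (SE; adjusted p = 0.283), against 0.32 ± 0.21 with it.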

How the results depend on the processing

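Over 1547 refits of member probes under the alternatives, 1 was called, Aldh1a3 at its brighter probe in the strain comparison with slide as a block (0.63, adjusted p = 0.0385), so that 1 member was called there. The cause was not tested. The 10 member differences with an unadjusted p under 0.05 changed sign in 0 of their 247 refits. Differences within single slides are not among these refits, and some turned there. For the F1 mean minus mid-parent, slide 3 gave -0.16 for Cyp26b1 and -0.10 for Aldh1a1, and slide 2 gave 0.04 for Crabp2. For the F1 mean minus 129S1/SvImJ, slide 2 gave -0.05 for Aldh1a3 at its brighter probe. The rest of the 10 kept their sign on every slide. Leaving out single arrays, 0 members were called in any comparison. Over all probes the strain comparison gave 1513 to 1930 calls without single arrays, the reciprocal hybrids 2 to 5, the F1 mean minus C57BL/6J 461 to 779, minus 129S1/SvImJ 348 to 605, minus mid-parent 51 to 117, and the F test 933 to 1277. Moves of over 1.5 times came without E1 (5 for the hybrids), A3 (348 for 129S1/SvImJ), M6 and C4 (54 and 51 for mid-parent).

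With the letter of the sample name as a random block the calls over all probes were 1224 for the strains (1915 without the block), 355 and 341 for the F1 mean minus C57BL/6J and minus 129S1/SvImJ (668 and 540), 38 for mid-parent (84) and 722 in the F test (1249). With slide as a block they were 445, 305 and 31 for the 3 F1 comparisons with the strains. Between the reciprocal hybrids they were 0 with normexp and loess and 1 with the strict detection filter, against 2. No paired analysis was possible because the groups share no replicate names, and slide, which slides 2 to 4 share between all groups, was used as the block instead. The relation of Rdh10 with the mesenchyme list, whose alternatives were chosen after seeing the data, kept r between 0.68 and 0.84 in 25 refits and passed the threshold in 3 of 5 settings and in 14 of 20 refits without 1 array. Its adjusted p was 0.055 without A3, 0.066 without D4, 0.0715 without H1, 0.0825 without E1, 0.099 without C2 and 0.128 without F2, and 0.0605 with normexp and loess and 0.066 with the deposited ratios. A restriction to the arrays compared could not be run for mid-parent, which uses all groups.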
